A study of Homo sapiens with 9 samples.

Results

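The resting transcriptome described here is that of cells labelled BxPC3 that received vehicle alone. It was taken from the 3 libraries titled DMSO, of 9 in the series, by their sample titles and by no measured value. BxPC3 is an established human pancreatic adenocarcinoma line, and every library, vehicle or drug, carries the same labelled genotype. The other libraries are 3 titled MS172 and 3 titled PK9328. The labelled treatment is 5 µM for 6 h with PK9328, and vehicle was given over the same 6 h. That protocol names MS78 and not MS172, so no dose or time is given here for MS172. All libraries were made from poly(A)-selected RNA, and the labels do not say that replicates came from separate cultures. The p-values thus set differences between groups against the spread of these samples, and that spread may be technical.

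A resting transcriptome shows which proteins a cell can make. Housekeeping transcripts for ribosomes, the cytoskeleton and glycolysis usually make up a large part of the mRNA, while the identity of a cell rests on less abundant transcripts for transcription factors, adhesion molecules and secreted proteins. Pancreatic duct cells and most cell lines of ductal adenocarcinoma are epithelial, with E-cadherin, EPCAM and simple keratins, and with transcription factors such as GATA6, KLF5 and GRHL2. Mesenchymal cells instead depend on vimentin, fibrillar collagens and factors such as ZEB1, TWIST1 and PRRX1.

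Levels are in TPM, transcripts of every 1000000, summed over the transcripts of each gene, a unit that is scaled by transcript length and adds up to the same total in every library. The DMSO libraries held 25540416, 28031886 and 24535841 estimated reads. A gene was counted as detected at 1 TPM or more in all 3 libraries. Between pairs of DMSO libraries, log2(TPM + 1) correlated across 10967 genes with Pearson r from 0.995 to 0.996, as a description only, since genes are not independent replicates. A count of 0 allows up to 3 reads in a library, which is 0.117, 0.107 and 0.122 reads of every 1000000 in DMSO 1, 2 and 3, and this limit covers counting error only. Because RNA was taken in bulk, fewer cells of a type and less RNA per cell cannot be told apart.

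Of 19692 protein-coding genes, 10742 (54.6%) were detected, and their median level was 16.9 TPM. At least 10 TPM was reached in all 3 libraries by 6688 genes, at least 100 TPM by 1243 and at least 1000 TPM by 144. A further 4893 coding genes (24.8%) were at 0 in every DMSO library, 3618 lay under 1 TPM without being at 0 throughout, and 439 crossed 1 TPM between libraries. The 100 most abundant coding genes held 41.8% ± 0.83 (SD, n = 3) of all gene TPM, the 10 most abundant held 11.3% ± 0.62, and 173 genes together reached 50% of it. Protein-coding genes made up 96.7% of gene TPM, long noncoding genes 1.21% and pseudogenes 0.957%.

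The most abundant nuclear transcript was TMSB4X, which encodes thymosin beta 4, a small protein that binds actin monomers (chromosome X, 12975108 to 12977227, GENCODE 29 on GRCh38). It stood at 25431, 24512 and 24312 TPM in DMSO 1, 2 and 3. EEF1A1, the elongation factor that brings aminoacyl-tRNA to the ribosome (chromosome 6, 73515750 to 73523797), followed at 11407, 11626 and 11293 TPM. The libraries lay close together for both genes, and TMSB4X was above every other nuclear gene in each of them. Cytoskeletal transcripts were prominent among the leading 20: ACTB, which encodes beta-actin, was at 9595.5 TPM ± 312, TMSB10, another thymosin, at 6483 ± 174, and VIM, which encodes the intermediate filament vimentin, at 7027 ± 188 (SD, n = 3 each). VIM (chromosome 10, 17228259 to 17237593) was at 7121, 7149 and 6809.6 TPM, so a mesenchymal filament gene ranked 12 of all coding genes.

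Of the other nuclear genes among the leading 20, 12 encode ribosomal proteins, from RPS18 at 8709 TPM to RPS10 at 4619.7 TPM. GAPDH, the glycolytic dehydrogenase, was at 8579.5 TPM ± 333, RACK1, a scaffold of the small ribosomal subunit, at 7047 ± 246, and FTL, the light chain of the iron store ferritin, at 6099 ± 323. The 81 ribosomal protein genes together held 23.8% ± 0.12 of gene TPM, and 61 of them were among the 100 most abundant coding genes. Of these 81, 78 were detected, and RPL10L, RPL39L and RPL3L, which encode alternative forms of ribosomal proteins, were at 0.

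**Figure D1:**
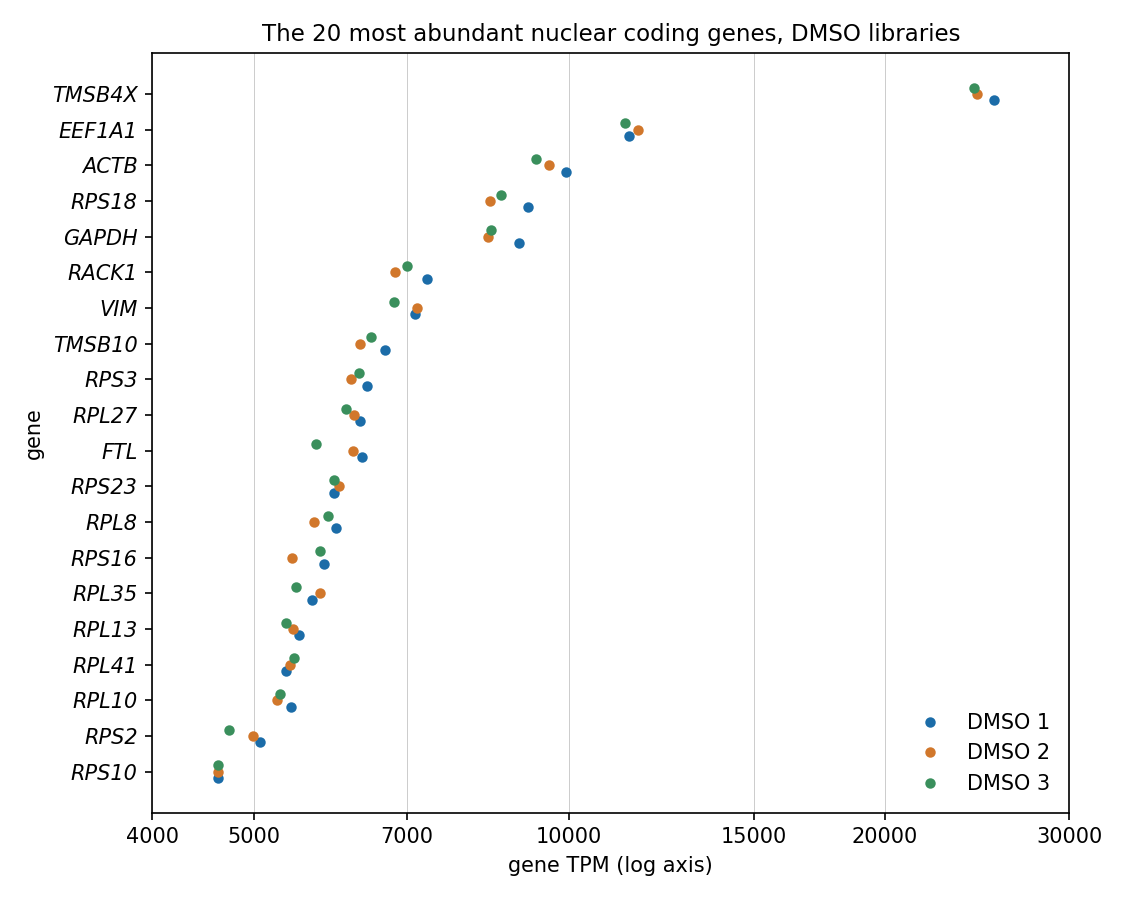
Gene TPM (log axis) of the 20 nuclear coding genes with the highest mean level, with 1 point for each of DMSO 1, 2 and 3. TMSB4X stands apart near 24752 TPM, and the points of the other 19 genes run from about 11442 TPM for EEF1A1 down to 4619.7 TPM for RPS10, with the 3 libraries close together.

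The 13 mRNAs of the mitochondrial genome, which encode subunits of the respiratory chain and of ATP synthase, held 6.45%, 6.75% and 8.37% of gene TPM in DMSO 1, 2 and 3. They ran from MT-CO2, a subunit of cytochrome c oxidase, at 11476 TPM ± 1652 down to MT-ND5, a subunit of complex I, at 856 TPM ± 98.4. All 13 were highest in DMSO 3, so their share was less even between libraries than that of the ribosomal protein genes. Cytoskeletal genes on a list of 42 held 6.45% of gene TPM, 23 translation factors 2.89%, 18 glycolysis genes 1.81% and 32 S100, annexin and galectin genes 1.18%.

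Among genes annotated as long noncoding, FP671120.3 on chromosome 21 had the highest value, at 1105, 2235 and 1585 TPM. That value differed between libraries, and whether its reads came from this gene or from similar sequence elsewhere was not tested. LINC02154 was at 1254 TPM ± 37.7, SNHG5, a host gene of small nucleolar RNAs, at 1113 ± 32.9, LRRC75A-AS1 at 814 ± 29.4 and AL353751.1 at 339.8 TPM ± 12.5. Since the values of antisense and overlapping genes cannot be separated without strand, those of LRRC75A-AS1 and of AL353751.1, which is annotated as antisense, are uncertain.

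Most levels repeated closely. Among 6942 coding genes with a mean of at least 10 TPM the median coefficient of variation over the DMSO libraries was 5.17%, and it was under 10% for 85.7% of them. The 5 least even genes in that range were NOMO3 (15.02, 3.40 and 16.5 TPM), MT1A (26.6, 13.5 and 48.7 TPM), PYURF (22.0, 40.8 and 16.9 TPM), RPS10-NUDT3 (51.2, 33.1 and 21.3 TPM) and IMMP1L (7.26, 15.7 and 17.9 TPM). NOMO3 and MT1A have near-identical relatives, PYURF shares its transcript with another gene and RPS10-NUDT3 is a readthrough of RPS10, so these values are uncertain.

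The enzyme that closes glycolysis shows which splice form the cells used. PKM, which encodes pyruvate kinase, has a pair of mutually exclusive exons, of which PKM-202 (the M2 form, common in proliferating cells) has the first shown here and PKM-201 (the M1 form, typical of muscle and brain) the second. Both exons lie on the minus strand of chromosome 15, at chr15:72202454-72202620 and chr15:72203022-72203188, are read here from the GENCODE 29 transcripts in the sense of the mRNA, and have 167 coding bases each. They are 62.9% identical, and capitals mark the 62 bases at which they differ.
PKM-202: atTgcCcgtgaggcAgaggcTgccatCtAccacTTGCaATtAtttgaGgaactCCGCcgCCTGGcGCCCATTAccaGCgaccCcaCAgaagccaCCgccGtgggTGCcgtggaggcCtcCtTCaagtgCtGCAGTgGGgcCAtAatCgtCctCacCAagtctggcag
PKM-201: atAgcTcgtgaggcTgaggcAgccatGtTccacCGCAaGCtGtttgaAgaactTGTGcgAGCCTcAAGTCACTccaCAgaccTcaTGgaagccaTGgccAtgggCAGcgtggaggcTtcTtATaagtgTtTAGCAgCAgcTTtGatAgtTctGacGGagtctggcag
The 4 annotated transcripts with the PKM-202 exon summed to 1604, 1572 and 1544 TPM in DMSO 1, 2 and 3, whereas the 6 with the PKM-201 exon summed to 17.6, 17.8 and 11.3 TPM. The sums did not overlap, and PKM-202 alone held 89.9% of the TPM of the gene. Among the other glycolysis genes, ALDOA was at 2015 TPM, ENO1 at 1643 TPM and LDHA, the lactate dehydrogenase A subunit, at 709.7 TPM, while LDHB, the B subunit, was listed at 0 in DMSO 1 and 3 and at 0.107 TPM in DMSO 2.

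Transcription factor genes were read on 9 lists of 299 genes in all, of which 98 were detected, 107 were at 0 in every DMSO library and 94 lay between. The best covered list was that of mesenchymal and mesodermal factors, with 28 of 60 detected, and the least covered were pluripotency factors, with 1 of 10. Of 35 pancreas and gut factors 8 were detected and 14 were at 0, and of 22 epithelial factors 5 were detected and 6 were at 0. Beside these counts, 54.6% of all coding genes were detected. The lists were assembled by hand and describe the cells without a test.

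NR2F1, an orphan nuclear receptor of mesodermal and neural tissue (chromosome 5, 93583224 to 93594615), was the highest factor on the mesenchymal list, at 192, 194 and 186.5 TPM. Its relative NR2F2 was at 82.7, 77.8 and 71.0 TPM, and OSR1, a factor of intermediate mesoderm, at 69.5, 66.7 and 66.2 TPM. NR2F1 was above NR2F2 and NR2F2 above OSR1 in all 3 libraries. CREB3L1, an activator of collagen secretion genes, was at 67.2 ± 2.45 TPM and TEAD4, the DNA-binding partner of YAP, at 48.9 ± 0.450 (SD, n = 3 each). ZEB1, a repressor of E-cadherin and a driver of the mesenchymal state, was at 26.3, 31.3 and 23.6 TPM. In contrast, ZEB2 was at 0.0103 TPM, SNAI2 at 0.177 TPM and PRRX1 at 0.00355 TPM, and TWIST1 and TWIST2 were at 0. These 5 genes were named because they lay under 1 TPM, and 28 of the 60 members of the list were detected. PRRX2, a relative of PRRX1, was at 40.4, 39.0 and 37.8 TPM.

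The epithelial list was led by TFAP2A, an AP-2 factor of skin and neural crest (chromosome 6, 10393186 to 10419659), at 160.5, 157 and 153.5 TPM. TP63, a factor that maintains basal and squamous epithelia, was at 44.2, 47.9 and 39.7 TPM. The ETS factors EHF and ELF3, which are typical of epithelia, were lower, at 10.9 and 7.63 TPM, and KLF4 was at 9.06 TPM. The grainyhead factor GRHL2 was at 0.00306 TPM, KLF5 at 0.240 TPM and OVOL1 at 0.0104 TPM, all under 1 TPM in each library.

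TP63 has 2 starts, and these give proteins with and without the transactivation domain. The coding starts below are shown because the libraries hold transcripts of both; they are read from the GENCODE 29 transcripts on the plus strand of chromosome 3, at chr3:189631516-189631575 and chr3:189789801-189789842, and capitals mark the start codon.
TP63-201: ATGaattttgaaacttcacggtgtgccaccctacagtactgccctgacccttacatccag
TP63-203: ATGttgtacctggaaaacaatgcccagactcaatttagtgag
TP63-201, from the upstream start, was at 30.4, 25.0 and 25.8 TPM and held 61.7% of the TPM of the gene. TP63-212, which shares the coding start shown for TP63-203, was at 9.98, 11.2 and 9.36 TPM, and TP63-203 itself at 0.601, 8.52 and 3.499 TPM. Together the 6 transcripts of the upstream start were at 33.1, 27.8 and 26.4 TPM and the 8 of the internal start at 11.1, 20.1 and 13.2 TPM, so the groups did not overlap, although the internal group varied more between libraries.

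Of the factors that set up the pancreas and gut, SOX9, which marks pancreatic progenitors and ducts and also cartilage, was the highest at 98.4, 97.8 and 84.4 TPM. PAX6 followed at 21.1 ± 0.125 TPM (SD, n = 3), GATA4 at 13.6 TPM, HHEX at 10.4 TPM and MNX1 at 6.21 TPM. Other members of the list, named because they lay under 1 TPM, were near or at 0. PDX1 was at 0.147 TPM, GATA6 at 0.180 TPM and HNF4A at 0.0222 TPM, and FOXA2 and PTF1A were at 0 in every DMSO library. FOXA1 was detected, at 1.88 TPM.

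Among factors of other lineages, NKX2-5, best known from the heart, was at 33.2, 30.7 and 29.7 TPM, while the muscle regulators MYOD1, MYOG, MYF5 and MYF6 were at 0. On the list of neural and neural crest factors, GBX2 was at 20.96 TPM, IRX3 at 17.4 TPM, PAX8 at 14.7 TPM and SOX8 at 9.24 TPM, while SOX10, SOX2, PAX3 and FOXD3 were among 29 of 60 at 0. GATA2 led the blood and endothelial factors at 25.1 TPM, and SOX18, CEBPA, LYL1 and GATA3 were detected at 11.7, 11.2, 6.35 and 3.84 TPM. Of the pluripotency and gastrulation factors GSC was detected, at 2.90 TPM. Of 48 nuclear receptors, 20 were detected and 11 were at 0; NR2F6 was at 58.1, RARG, a retinoic acid receptor, at 53.7 and NR1H2, a sterol receptor, at 52.9 TPM, whereas the vitamin D receptor VDR was at 0.272 TPM and the steroid receptors ESR1 and PGR were at 0. Of 39 HOX genes 13 were detected, led by HOXB2 at 24.1, HOXA3 at 11.5 and HOXC8 at 10.9 TPM, and 17 were at 0, among them HOXD1, HOXD3, HOXD4, HOXD8, HOXD9, HOXD10 and HOXD11.

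**Figure D2:**
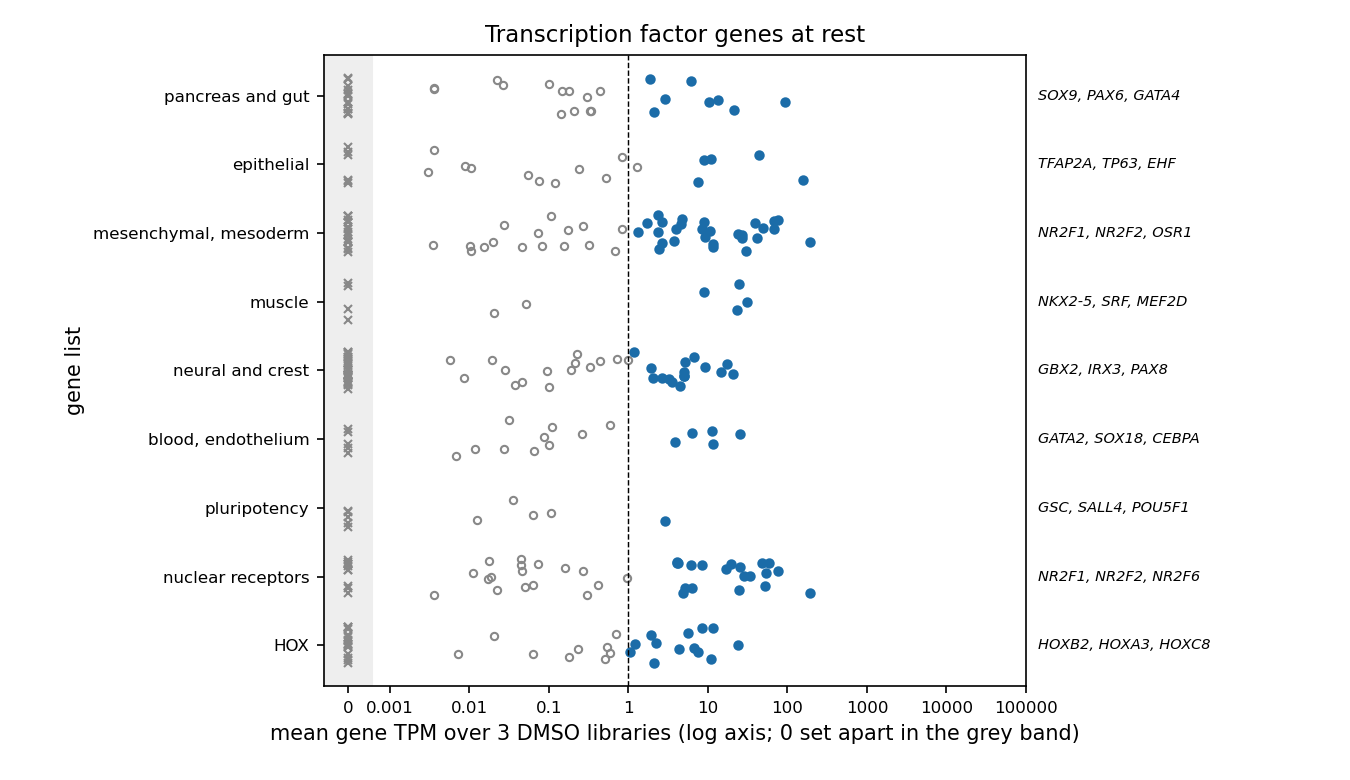
Mean gene TPM over 3 DMSO libraries (log axis, with genes at 0 set apart in the grey band) of the transcription factors on 9 lists, with the 3 highest members named at the right. Filled points are genes at 1 TPM or more in every DMSO library, open points lie lower, crosses are at 0, and the dashed line is 1 TPM; the mesenchymal list has 28 filled points of 60 and the pancreas list 8 of 35.

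Surface genes were read on 7 lists of 214 genes, with 93 detected and 45 at 0. The highest was BSG, which encodes basigin, a chaperone of lactate transporters, at 1205, 1154 and 1139 TPM. CD44, the hyaluronan receptor, was at 884, 860.0 and 807 TPM over all its transcripts. Of this level, 30.9% was assigned to CD44-227, annotated as a processed transcript without a coding sequence, and 14.1% to a transcript annotated for nonsense-mediated decay. Both genes were even across the libraries. Tetraspanins and nutrient carriers were the best covered list, with 20 of 23 detected, among them CD63 at 420.0, CD151 at 298, CD9 at 186 and SLC3A2, the heavy chain of amino acid transporters, at 258 TPM.

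Integrins, which bind matrix, and cadherins, which join cells, were read on a list each. Of 26 integrin genes 9 were detected, led by ITGB1 at 333, 389.6 and 340.5 TPM, ITGB4, a hemidesmosome subunit, at 297, 277 and 270.1 TPM and ITGA3 at 125, 128 and 138 TPM. Of 21 cadherin genes 2 were detected, CDH24 at 2.34 TPM and CDH15 at 1.78 TPM. CDH1, which encodes E-cadherin, was at 0 in all 3 libraries, and CDH2, which encodes N-cadherin, was at 0.0132, 0.0124 and 0.154 TPM. CDH3 was at 0.240 TPM and CDH11, the cadherin of mesenchyme, at 0.00672 TPM.

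Among antigens studied on pancreatic cancers, 6 of 30 were detected. GPRC5A, a retinoic acid induced receptor, was at 227, 238 and 233 TPM, CLDN4, a tight junction claudin, at 91.2, 94.6 and 91.2 TPM and CEACAM1 at 26.8, 30.0 and 27.8 TPM. MUC1 was at 4.21 TPM, mesothelin (MSLN) at 0.250 TPM and EPCAM at 0.0242 TPM, and CEACAM5, CEACAM6, MUC16, CLDN18 and TSPAN8 were among 14 at 0. Of 26 antigens of stromal cells 10 were detected; NT5E, the ectonucleotidase CD73, was at 181 and ENG, a TGF-beta coreceptor, at 49.5 TPM, whereas THY1, FAP and NCAM1 were at 0. TGFBR1 was at 1.86 TPM and TGFBR2, the receptor subunit that binds TGF-beta, at 0.0622 TPM.

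Of 54 receptor tyrosine kinases 24 were detected. EPHA2 led at 102, 100.3 and 93.9 TPM, followed by EPHB4 at 87.3, 93.1 and 94.4 TPM, and these neighbours in rank overlapped between libraries. ERBB2 was at 56.7, 65.7 and 58.1 TPM, PTK7 at 42.9 and AXL at 42.3 TPM. EGFR was at 12.5, 14.97 and 11.7 TPM, and its ligands AREG and EREG were at 133 and 60.2 TPM, while EGF was at 0.00338 TPM and TGFA at 0.0512 TPM. KIT, KDR, FLT3 and ALK were at 0, and PDGFRA and PDGFRB at 0.00917 and 0.104 TPM. Of the class I antigen presentation genes, B2M was at 763, HLA-E at 118, HLA-B at 89.1 and HLA-C at 79.0 TPM, whereas HLA-F and HLA-G were at 0.230 and 0.468 TPM. The class II genes HLA-DRA and CD74 were at 0.0634 and 0.269 TPM. Of the checkpoint ligands CD276 was at 41.2 TPM, CD274 at 0.545 TPM and PDCD1LG2 at 0.

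Secreted genes were read on 5 lists of 294 genes, with 108 detected and 88 at 0. TIMP1, an inhibitor of matrix metalloproteinases (chromosome X, 47582313 to 47586789), was the highest at 2215.5, 2117 and 2183 TPM, and MIF, a cytokine that is made by most cells, followed at 1138, 1049 and 1018 TPM. IGFBP6, a binder of insulin-like growth factor 2, was at 650.4, 653 and 661 TPM. These 3 were even across libraries. The proteases and inhibitors also held CTSD, a lysosomal protease, at 594, SERPINA3, an antichymotrypsin, at 421, SERPINF1 at 357 and PLAU, the urokinase, at 281 TPM. Of the metalloproteinases MMP14 was at 0.332, MMP1 at 0.0264 and MMP9 at 0.00757 TPM, and MMP2 and MMP3 were at 0.

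Collagen genes were uneven. COL1A2, which encodes the alpha 2 chain of type I collagen (chromosome 7, 94394561 to 94431232), was at 589, 668 and 619 TPM, whereas COL1A1, which encodes the alpha 1 chain of the same fibre, was at 0.871, 0.271 and 0.359 TPM. The values did not overlap, and the alpha 1 chain is the more abundant chain in the usual type I fibre. COL6A2 and COL6A1, of the microfibrillar type VI collagen, were at 105 and 95.9 TPM, COL5A2 at 96.6 and COL18A1, a basement membrane collagen, at 55.6 TPM. Of 44 collagen genes 14 were detected and 15 were at 0, and together they held 0.1102% of gene TPM. Among matrix glycoproteins, 18 of 61 were detected: LTBP3, a binder of latent TGF-beta, was at 74.5, LOXL2, a collagen crosslinking enzyme, at 61.0 and the laminin chain LAMC1 at 60.3 TPM, while fibronectin (FN1) was at 0.384, 0.617 and 0.130 TPM, and THBS1 was at 0.

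Beside MIF and IGFBP6, given above at higher levels, signals to other cells included growth factors and their binders. SFRP1, a WNT antagonist, was at 213, GDF15, a stress cytokine, at 208 and SEMA3A, a guidance molecule, at 151 TPM. Of 91 growth factor genes 41 were detected. Of 50 cytokine and chemokine genes 15 were detected and 23 were at 0. The neutrophil attractants CXCL1 and CXCL8 were at 89.8 and 61.8 TPM and LIF, an IL-6 family cytokine, at 24.1 TPM, whereas IL6, IL1A, IL1B, CCL2, CXCL10 and CXCL12 were at 0.

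**Figure D3:**
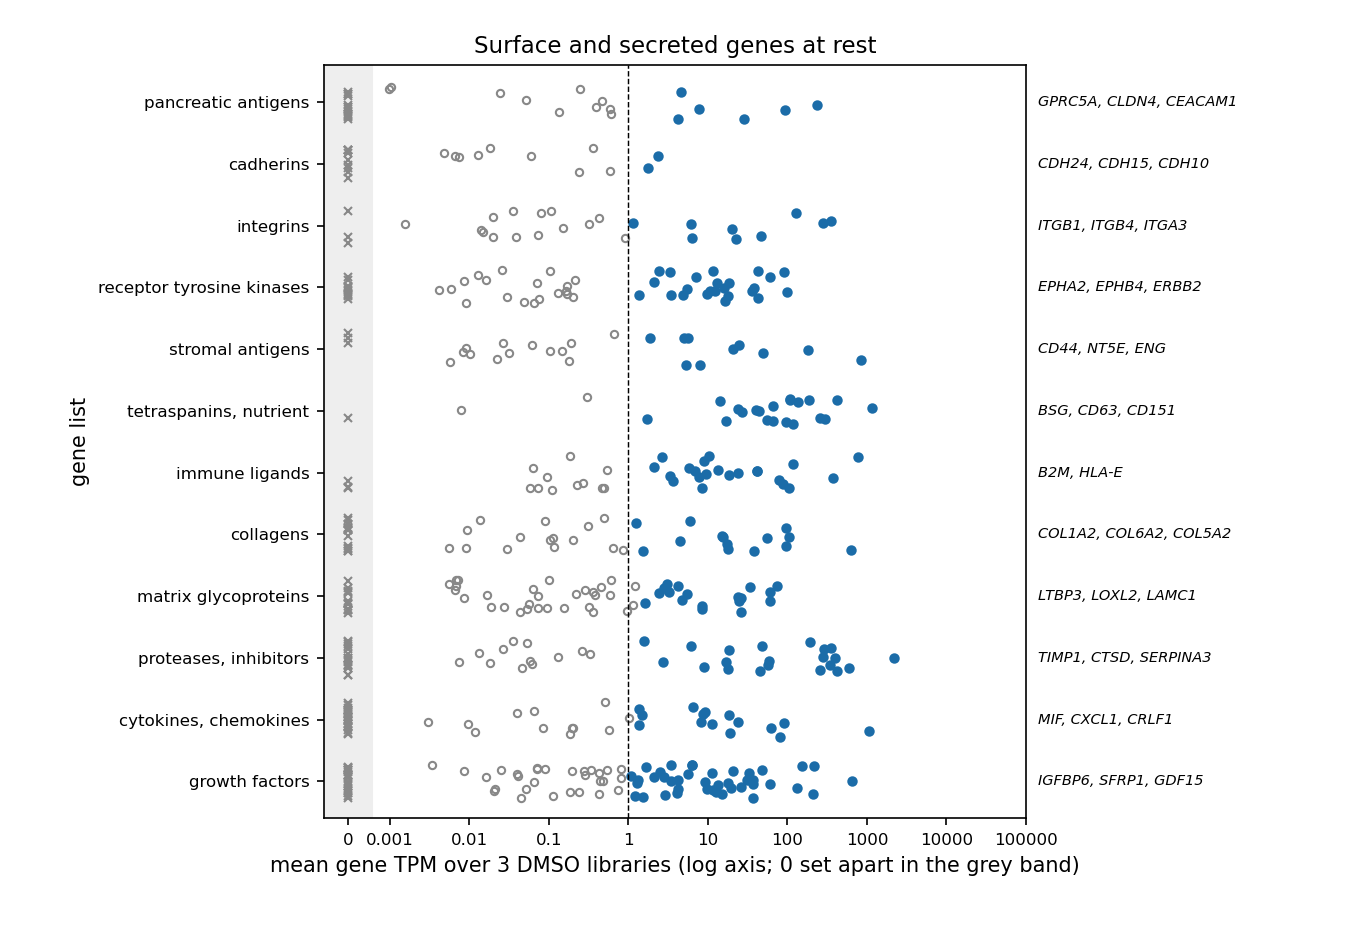
Mean gene TPM over 3 DMSO libraries (log axis, genes at 0 in the grey band) of the members of 7 surface lists and 5 secreted lists, with 2 or 3 of the highest members named at the right. Filled points are genes at 1 TPM or more in every DMSO library; the cadherin list has 2 filled points of 21, and the list of tetraspanins and nutrient carriers has 20 of 23.

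The label of a pancreatic adenocarcinoma cell was set against cell type markers. Of 20 ductal markers 7 were detected, 7 were at 0 and 6 lay between, and their summed level ran from 1808 to 1909.6 TPM. The sum came mostly from the simple keratins KRT18 at 755, 721 and 709 TPM, KRT8 at 604, 581 and 578 TPM and KRT19 at 347, 339 and 332 TPM. Several other markers of the list were at or near 0. CDH1, CFTR, CEACAM6, AGR2, TFF2 and TSPAN8 were at 0, and EPCAM was at 0, 0.0342 and 0.0383 TPM. KRT7, the keratin that pairs with KRT19 in duct cells, was at 0.0785 TPM. Measured on these markers, the libraries go against a ductal epithelial identity except for KRT8, KRT18, KRT19, SOX9, CLDN4, ELF3 and MUC1. The cells are thus referred to only as labelled. None of 25 acinar and endocrine markers was detected; 21 were at 0, among them PRSS1, CPA1, PNLIP, INS and GCG, and the list summed to 0.476 to 0.714 TPM.

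Markers of other cell types were set beside these. Of 20 fibroblast markers 8 were detected, with a summed level of 9186 to 9572 TPM that came mostly from VIM, S100A4 at 1624 TPM and COL1A2. DCN and LUM, proteoglycans of fibroblasts, were at 0.0573 and 0.0943 TPM, and FAP, THY1 and TCF21 were at 0. Of 14 smooth muscle and pericyte markers 6 were detected, among them RGS5, a pericyte regulator of G proteins, at 186, 191 and 172.2 TPM. NOTCH3 was at 15.2, SMTN at 7.87 and ACTA2 at 4.73 TPM, while MYH11 was at 0.0962 and CSPG4 at 0.0320 TPM, and KCNJ8 was at 0. Of 14 skeletal muscle markers 3 were detected, led by TNNT1, the slow skeletal troponin T, at 219, 222 and 216 TPM. Of 12 endothelial markers EGFL7 was detected, at 154, 162 and 154 TPM, and CDH5, KDR, PLVAP and EMCN were at 0. For TNNT1, RGS5 and EGFL7 a high level stood beside other markers of the same list at or near 0. For TNNT1 and RGS5 it also stood beside others that were detected. The part of these genes in the makeup of the cultures was not tested.

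Of 14 squamous and basal markers 5 were detected: TP63, PERP at 37.9, JUP at 29.8, S100A2 at 11.9 and SFN at 2.13 TPM, while KRT5, KRT14 and KRT17 were at 0.00675, 0.0202 and 0.0378 TPM and KRT6A and DSC3 were at 0. Instead, the keratins outside the simple group that were detected included KRT13 at 168, 187 and 191 TPM and KRT15 at 25.9 TPM; 8 of 33 keratin genes were detected and 14 were at 0. Of 18 neural markers 7 were detected, led by TUBB3, a beta-tubulin, at 160.0 TPM, MBP, which encodes myelin basic protein, at 51.8 TPM and NES, which encodes nestin, at 41.5 TPM. Of 18 leukocyte markers 4 were detected, CD68, LAPTM5, FCER1G and CORO1A, at 14.96, 6.73, 4.79 and 4.62 TPM, whereas PTPRC, the pan-leukocyte antigen, was at 0.00654 TPM. SERPINA1 was the highest of 16 hepatocyte markers, at 48.4 TPM, with ALB at 0. None of 10 melanocyte markers was detected.

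**Figure D4:**
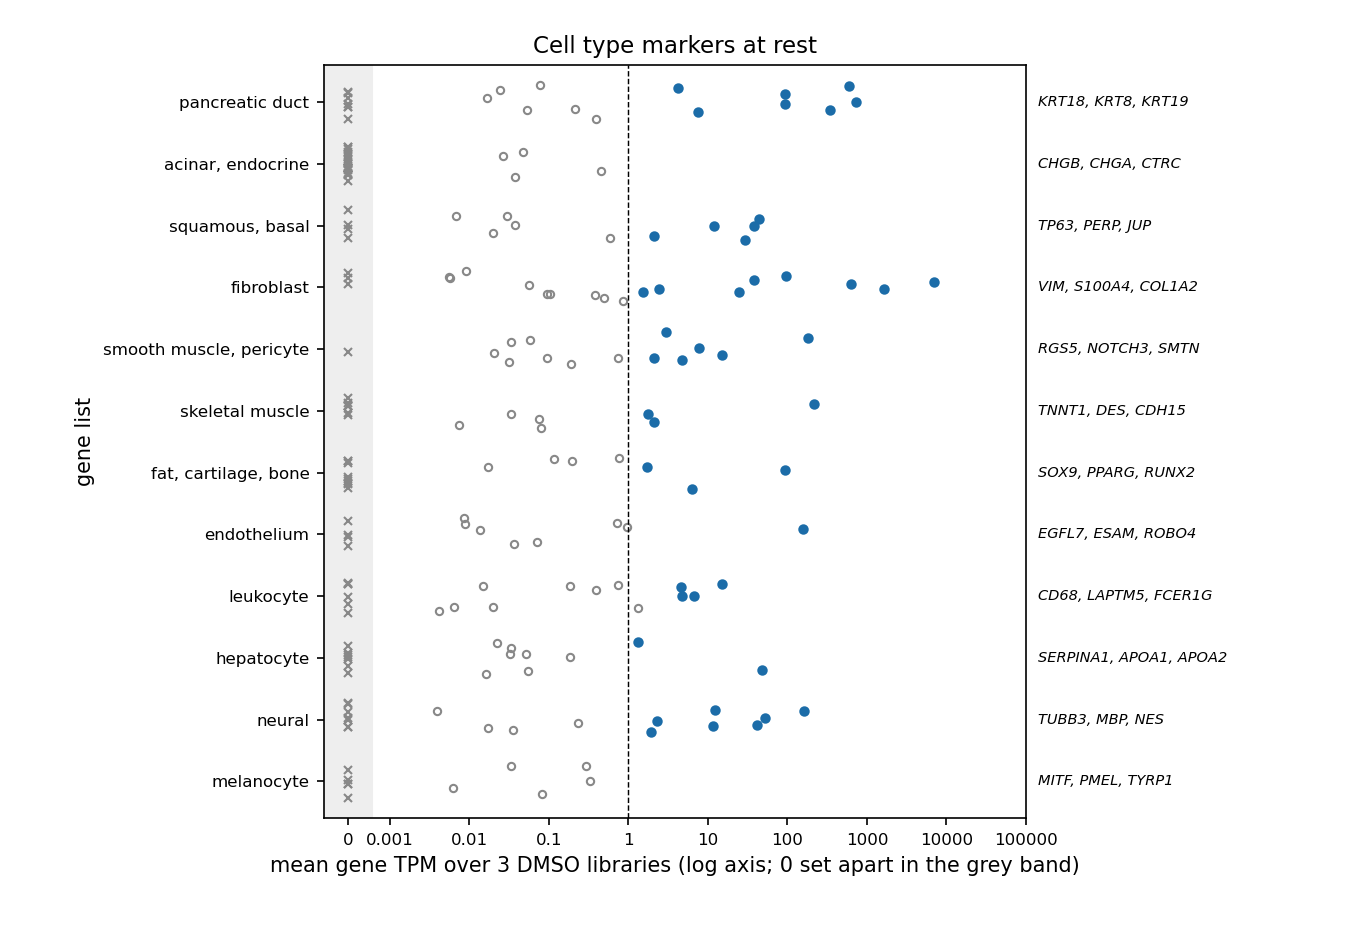
Mean gene TPM over 3 DMSO libraries (log axis, genes at 0 in the grey band) of the markers of 12 cell types, with the 3 highest members named at the right. Filled points are genes at 1 TPM or more in every DMSO library: 7 of 20 ductal markers, 8 of 20 fibroblast markers and none of 25 acinar and endocrine markers.

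Genes that are mutated or lost in pancreatic cancer were read next. MYC was at 185 TPM. SMAD4, the mediator of TGF-beta signals, was at 17.8, 19.5 and 17.3 TPM. BxPC3 is described in the literature as having lost both SMAD4 and CDKN2A by homozygous deletion, so the level of SMAD4 goes against that description, whereas CDKN2A was at 0 in every library.

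CDKN2A, which encodes the cell cycle inhibitors p16 and ARF, lay within a longer silent stretch on the short arm of chromosome 9. There, 25 neighbouring coding genes, from MLLT3 to DMRTA1 (20341665 to 22455740, 2.11 Mb), were at 0 in all 3 DMSO libraries. The stretch holds 16 interferon genes, which are silent in most resting cells, but also genes with wide expression in many tissues: MTAP, the enzyme that salvages methionine, CDKN2B, FOCAD, HACD4 and KLHL9. Over all 9 libraries its coding genes drew 1 estimated read in total. Of 64 annotated genes of any type there, 63 were at 0 in every DMSO library, and the pseudogene KHSRPP1 was at 0.0287 TPM in DMSO 2.

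On the side of lower coordinates, RPS6, a ribosomal protein, was at 2246, 2315 and 2311 TPM, PLIN2, a lipid droplet protein, at 40.9, 39.3 and 39.2 TPM, and DENND4C at 11.2, 13.6 and 10.7 TPM. Between RPS6 and the stretch, ACER2 and SLC24A2 lay under 1 TPM. On the side of higher coordinates the next detected genes were CAAP1, at 12.8, 10.8 and 11.2 TPM, and PLAA, at 25.0, 24.9 and 25.1 TPM, and between them and DMRTA1 ELAVL2 had a value above 0 in DMSO 2, with IZUMO3 and TUSC1 at 0. The coding genes of the stretch were thus all at 0, with detected genes further out on either side. RNA levels do not show whether the DNA was absent.

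**Figure D5:**
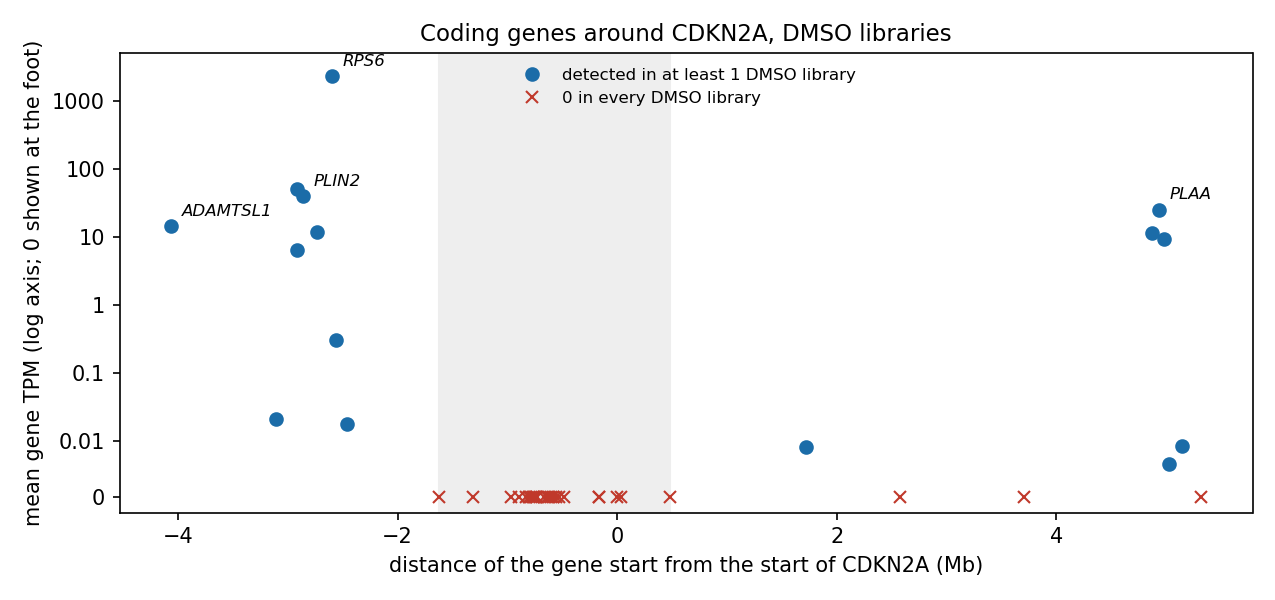
Mean gene TPM over 3 DMSO libraries (log axis, with 0 shown at the foot) of coding genes by the distance of their start from that of CDKN2A in Mb. Crosses are genes at 0 in every DMSO library; all 25 genes in the grey span from MLLT3 to DMRTA1 are crosses, while RPS6 to the left and PLAA to the right are detected.

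The genes at 0 were mostly at 0 under drug as well. Of the 4893 coding genes at 0 with DMSO, 4391 were at 0 in all MS172 libraries, 4326 in all PK9328 libraries and 4035 in all 9 libraries. None reached 1 TPM in all 3 MS172 libraries, and AL121900.2 did so with PK9328, at 1.70, 1.28 and 1.02 TPM. Those above 0 in every library of a compound numbered 10 with MS172 and 18 with PK9328.

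The resting genes were then compared with the drug libraries by edgeR's quasi-likelihood test over 13914 genes, with 0.05 as the threshold for p adjusted by Benjamini-Hochberg. With MS172, 17.9% of all genes tested rose and 17.2% fell, and with PK9328 7.98% rose and 7.48% fell. Both comparisons use the same DMSO libraries. The direction of these calls depended on the scale: with limma on log2(TPM + 1) over the same genes, an alternative chosen after seeing the data, 471 rose and 3674 fell with MS172, and 610 rose and 183 fell with PK9328. With MS172 the median log2 change of all genes tested was -0.02 on the read scale of edgeR and -0.14 on the TPM scale, so list medians are given relative to that of all genes (0.00 and 0.04 with PK9328).

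The transcription factor, surface and secreted genes compared were those detected with DMSO. They were thus chosen by values that enter the comparison, and members under 1 TPM in any DMSO library are left out. Of the 98 detected transcription factors, 16 (16.3%) rose and 27 (27.6%) fell with MS172 by edgeR, and 4 rose and 42 fell by limma. Their median relative to all genes was -0.07 on either scale. With PK9328 10 rose and 12 fell by edgeR, and without DMSO replicate 3 or without PK9328 replicate 3 the number that rose was 6. By limma 4 rose and 2 fell with PK9328. Of the 128 listed factors tested by edgeR whatever their DMSO level, 19 rose and 28 fell with MS172. With PK9328 10 of these rose and 12 fell.

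Of the 93 detected surface genes, 30 (32.3%) rose and 12 (12.9%) fell with MS172 by edgeR, whereas 9 rose and 24 fell by limma. Their median relative to all genes was 0.06 on the read scale and 0.02 on the TPM scale. With PK9328 8 (8.60%) rose and 25 (26.9%) fell by edgeR and 6 rose and 6 fell by limma, at relative medians of -0.09 and -0.08. Of the 108 detected secreted genes, 36 (33.3%) rose and 8 (7.41%) fell with MS172 by edgeR, and 14 rose and 16 fell by limma, at relative medians of 0.08 and 0.07. With PK9328 11 (10.2%) rose and 36 (33.3%) fell by edgeR and 10 rose and 12 fell by limma, at relative medians of -0.13 and -0.11. Whatever their DMSO level, 114 surface genes were tested by edgeR: 30 rose and 13 fell with MS172, and 8 and 25 with PK9328. Of 143 such secreted genes, 38 rose and 9 fell with MS172, and 12 and 36 with PK9328. The PK9328 libraries also had shorter fragments, estimated at 249.5 to 263.0 bases beside 281.2 to 289.1 with DMSO, and the part of fragment length in these counts was not tested here.

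The most abundant genes depended on the scale as well. Of the 100 most abundant coding genes, chosen by their DMSO level, 57 rose and 0 fell with MS172 by edgeR. None was lower at an unadjusted edgeR p under 0.05, and DESeq2 gave 62 higher and 0 lower. By limma on the TPM scale 11 rose and 12 fell, so no direction is given for these genes beyond their relative medians of 0.19 and 0.15. With PK9328 7 rose and 9 fell by edgeR, and leaving out DMSO replicate 1 gave 2 and 3, leaving out DMSO replicate 2 gave 2 and 13, leaving out DMSO replicate 3 gave 10 and 5, and leaving out a PK9328 replicate gave 2 to 6 and 4 to 8. With no filter on low counts 23 rose and 10 fell. Of 41 cytoskeletal genes tested, 17 rose and 9 fell with MS172 by edgeR but 3 rose and 13 fell by limma, at medians relative to all genes of 0.10 on the read scale and 0.09 on the TPM scale. With PK9328 21 of them fell by edgeR and 10 by limma, and 0 rose by either test, at relative medians of -0.13 and -0.12.

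The 218 most abundant members of the lists and leading genes were also chosen by their DMSO level. Among them, the 3 that passed the edgeR threshold with the largest log2 change with MS172 were CXCL8, GDF15 and ELF3. CXCL8 was at 62.9, 63.8 and 58.8 TPM with DMSO and at 225, 217 and 218 TPM with MS172. ELF3 was at 9.06, 5.94 and 7.89 TPM with DMSO and at 2.61, 2.66 and 4.77 TPM with MS172, a log2 change by -0.94 with an SE of 0.11 (edgeR adjusted p = 7.6e-08). The groups did not overlap for either gene. With PK9328 the 3 that passed with the largest change were GDF15, SLC3A2 and COL1A2. SLC3A2 was at 256, 262 and 255 TPM with DMSO and at 395, 403 and 412 TPM with PK9328, a log2 change by 0.57 with an SE of 0.03 (edgeR adjusted p = 1.7e-13). COL1A2 was at 492, 490.3 and 472 TPM with PK9328, below all DMSO libraries, a log2 change by -0.41 with an SE of 0.04 (edgeR adjusted p = 5.9e-09). GDF15 was at 204, 211 and 209 TPM with DMSO, at 373, 388 and 379.8 TPM with MS172 and at 345, 360.3 and 344 TPM with PK9328. TFAP2A, which led the epithelial list, had a log2 fold change of -0.15 with MS172 (edgeR adjusted p = 0.0015) and -0.31 with PK9328 (edgeR adjusted p = 3.4e-07). NR2F1, which led the mesenchymal list, had -0.10 (edgeR adjusted p = 0.028) and -0.18 (edgeR adjusted p = 0.00097). SOX9, which led the pancreas and gut list, went the other way with MS172, at 0.29 (edgeR adjusted p = 0.020). With PK9328 SOX9 was at -0.21 (edgeR adjusted p = 0.12). These changes are on the read scale of edgeR, and limma values of single genes are not given here.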

How the data were processed

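Gene expression was measured by RNA-seq of poly(A)-selected RNA in 9 libraries, grouped by their sample titles as 3 DMSO, 3 MS172 and 3 PK9328. Per the file headers, the authors quantified 197653 transcripts in each library and deposited a TPM, scaled by effective length, and an estimated count of reads for each. Quality control with FastQC 0.11.8 and build hg38 are named in the submitters' processing notes; which quantifier was used was not given in the sources used here. TPM was summed per gene after 193505 transcripts were matched to GENCODE 29, which gave 56865 genes and left 0.356% to 0.382% of reads unmatched. The estimated counts over all transcripts ran from 24077353 to 28031886 reads per library. For the count tests, those of matched transcripts were summed per gene and then rounded to whole numbers.

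Drug libraries were compared with DMSO over all 9 libraries by edgeR 4.0.16 in R 4.3.3, with TMM scaling, edgeR's filter on low counts, the quasi-likelihood test and Benjamini-Hochberg adjustment over 13914 genes. Alternatives were other filters, RLE scaling, DESeq2 1.42.0, each replicate left out, a replicate block and, added after seeing the data, limma 3.58.1 on log2(TPM + 1). The count and limma tests were tested on simulated data. Summaries were made in Python 3.11.15 with pandas 2.3.3 and numpy 2.4.6. Detected means at least 1 TPM in all 3 DMSO libraries. Named genes were the 20 highest nuclear coding and 5 highest long noncoding genes, up to 5 highest and up to 5 defining low members of each list, the 5 least even genes and, per compound, the 3 of these that changed most; some genes that these rules name, and the labelled genotype, are not reported here. Members and lists were chosen with earlier results of these data known. Sequences were read from the GENCODE 29 transcripts.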

Additional observations from a re-analysis of the deposited data

How the results depend on the processing

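The number of detected coding genes was 11241 at a minimum of 0.5 TPM and 10021 at 2 TPM, and ran from 10782 to 10830 when a DMSO library was left out. Genes at 0 ran from 5194 to 5274 on leaving out a library. The share of the 100 most abundant coding genes was 39.3% without mitochondrial mRNAs, 43.2% with TPM rescaled to coding genes, and 41.3% to 42.1% on leaving out a DMSO library. On leaving out a library, the genes past the threshold with MS172 ran from 3874 to 4453, the lowest without DMSO replicate 2. With PK9328 they ran from 1384 to 2215, the lowest without DMSO replicate 1, and the count was 1400 without PK9328 replicate 2. By limma on log2(TPM + 1), chosen after seeing the data, 4145 genes passed with MS172, and 793 with PK9328; the cause was not tested. With a replicate block, edgeR called 4597 genes with MS172 and 1884 with PK9328. Deviations of same-numbered libraries from their group means correlated at -0.0569 to 0.0174, so no pairing by number was seen. With 3 libraries in a group, this check is limited. Other filters, RLE scaling and DESeq2 gave 4319 to 4946 calls with MS172 and 1911 to 2237 with PK9328. Depth limits what a listed 0 shows, to at most 3 reads a library.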

Other observations

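Cancer-testis genes, which are normally silent outside the germ line, were nearly all off. Of 37 on a list 31 were at 0 in every DMSO library and PRAME, which encodes a repressor of retinoic acid signalling, was the 1 detected member, at 29.1, 29.9 and 26.7 TPM.

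Runs of at least 10 neighbouring coding genes at 0 numbered 43. The longer runs than that around CDKN2A were FLG to S100A7 with 47 genes and OR2B11 to LYPD8 with 44 on chromosome 1, OR4C13 to APLNR with 46 on chromosome 11, CLDN17 to KRTAP19-8 with 35 on chromosome 21, AADACL4 to LRRC38 with 30 on chromosome 1 and KRTAP2-4 to KRT34 with 27 on chromosome 17. These hold mostly genes of the skin barrier and hair, olfactory receptors and PRAME relatives, families that are silent in most tissues.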
